A study of Mus musculus with 10 samples.

Results

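The NR4A orphan nuclear receptors are the genes Nr4a1, Nr4a2 and Nr4a3. They were taken by name from the array annotation, as every probe set that carries exactly 1 of these symbols. Each gene had 1 such probe set (10427035 for Nr4a1, 10482772 for Nr4a2 and 10504838 for Nr4a3), so 3 of the 16401 genes with a probe set of 1 symbol are described, and 0 probe sets with several symbols held a member. The cells were primary hepatocytes of male C57BL6/J mice aged 10 weeks, measured on Affymetrix gene arrays. All carried an adenovirus for 72 hours (2 to 4 plaque-forming units per cell) that expressed a non-specific short hairpin RNA (shNS), a hairpin against WDR5 (shWDR5) or a hairpin against KAT2B (shKAT2B). Each arm then received 100 nM glucagon or phosphate-buffered saline (PBS) for 90 minutes. The 10 libraries are pools of 3 culture dishes each: both shNS groups and the glucagon groups of the other arms have 2 each, lettered A and B, and the PBS groups of shWDR5 and shKAT2B have 1 each, lettered A. Every library is transduced, so untransduced cells are not part of any comparison, and each target has 1 named hairpin.

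NR4A proteins are transcription factors whose ligand pocket is filled by their own side chains, so their activity follows mainly from how much of them a cell makes. They bind as monomers to an extended nuclear receptor site and as dimers to a palindrome of it, and Nr4a1 and Nr4a2, unlike Nr4a3, also pair with the retinoid X receptor. In liver, glucagon raises cyclic AMP, protein kinase A then activates CREB and its CRTC coactivators, and the NR4A genes are among the early targets and take part in switching on glucose production. WDR5 is a core subunit of histone H3 methyltransferase complexes, and KAT2B is a histone acetyltransferase. The comparisons ask how depletion of either changes hepatocyte expression, and here whether the NR4A response to glucagon differs with it.

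The promoters are shown because cyclic AMP acts on these genes through cyclic AMP response elements (CREs), whose core is TGACG. The lines give the 250 bases before each gene's start from the RefSeq promoter table (GRCm38.p6), in the direction of the gene. The windows are chr15:101266596-101266845 on the + strand for Nr4a1, chr2:57124004-57124253 on the - strand for Nr4a2 and chr4:48045055-48045304 on the + strand for Nr4a3. Capitals mark the core on either strand, so that CGTCA is the core read on the opposite strand.
Nr4a1: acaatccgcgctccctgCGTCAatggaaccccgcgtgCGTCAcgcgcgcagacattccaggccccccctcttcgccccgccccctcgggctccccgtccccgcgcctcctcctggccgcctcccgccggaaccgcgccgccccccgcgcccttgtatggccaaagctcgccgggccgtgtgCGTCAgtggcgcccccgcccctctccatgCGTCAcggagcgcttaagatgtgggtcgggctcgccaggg
Nr4a2: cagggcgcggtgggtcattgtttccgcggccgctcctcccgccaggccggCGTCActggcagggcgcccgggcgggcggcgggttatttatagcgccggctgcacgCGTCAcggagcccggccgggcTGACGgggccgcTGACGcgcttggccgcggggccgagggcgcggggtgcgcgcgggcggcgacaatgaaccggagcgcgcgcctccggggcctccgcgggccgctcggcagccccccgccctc
Nr4a3: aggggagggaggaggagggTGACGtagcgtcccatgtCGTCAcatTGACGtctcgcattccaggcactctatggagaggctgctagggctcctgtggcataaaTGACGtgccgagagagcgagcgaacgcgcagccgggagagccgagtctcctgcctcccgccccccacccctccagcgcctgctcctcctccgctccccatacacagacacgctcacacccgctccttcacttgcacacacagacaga

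Each of the 3 windows held 4 cores. In Nr4a1 all 4 lay on the opposite strand, and the nearest began 40 bases before the start. In Nr4a2 both strands held 2, and the nearest began 111 bases before the start. In Nr4a3 the gene strand held 3 of the 4, and the nearest began 147 bases before the start. Of all 32851 RefSeq windows of this length, 17.8% held at least 1 core and 0.137% held at least 4, a threshold taken after the members were counted. The members' windows were rich in G and C (74.4%, 80.0% and 63.6%), and among windows with at least 60% G and C the shares were 27.1% and 0.37%. Among the 66 genes called higher under glucagon (below) that have a window, 3 had at least 4 cores. These were Nr4a1, Nr4a2 and Nr4a3, from which that threshold was taken. At least 1 core was in 28.3% of the windows of these 66 genes, near the 26.4% in windows of all genes tested. The palindromic element TGACGTCA, which holds the core on both strands, was in 1.55% of all windows, the monomeric NR4A site AAAGGTCA in 1.34% and TATAA in 22.8%, each searched on both strands. None of these was in the members' windows, except 1 TATAA on the opposite strand in Nr4a2. A match is a run of letters and was not tested for binding.

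**Figure D1:**
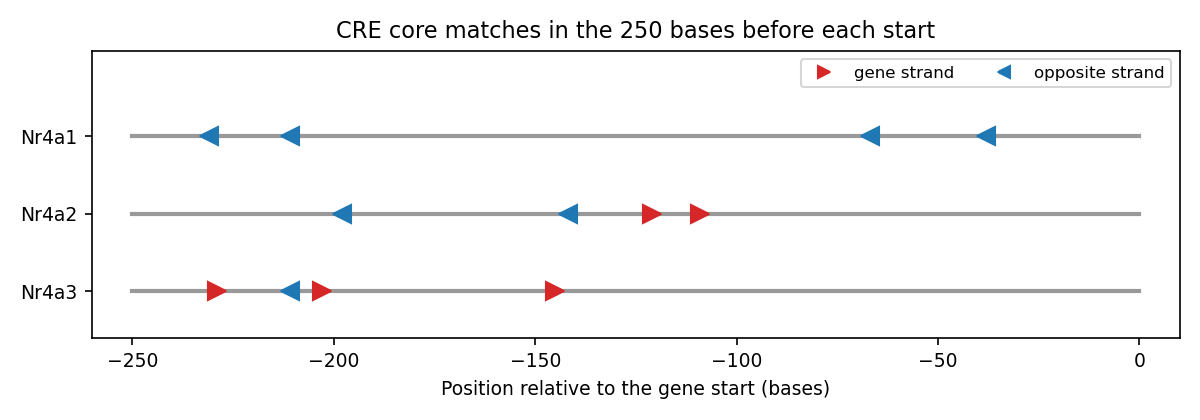
Position of the CRE cores in the 250 bases before the start of Nr4a1, Nr4a2 and Nr4a3, with the x axis in bases relative to the start; right-pointing marks lie on the gene strand and left-pointing marks on the opposite strand. Each line carries 4 marks, and the mark nearest to the start is centred 38 bases before it in Nr4a1, 109 in Nr4a2 and 145 in Nr4a3.

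Library medians ran from 282.1 to 298.2, and the number of libraries limits the precision. The hepatocyte markers Alb and Hnf4a had intensities of 10587 to 14664 and of 2778 to 4240. Among other hepatocyte markers Ttr read 2304 to 5113, Apoa1 662 to 2469 and Cps1 only 108 to 307. Kat2b read 96 to 121 in the 3 shKAT2B libraries against 676 to 771 in the other 7, and Wdr5 292 to 338 in the 3 shWDR5 libraries against 1010 to 1075. The libraries also differ in a way that arm and treatment leave over. The first component of the residuals, with 78% of their variance, set the A libraries of the 4 groups with 2 libraries (called the first library set here) apart from the other 6 (the second set, 1 library of each group). The letters give the same split, except that the lone PBS libraries of both knockdown arms fall in the second set. Kupffer cell and leukocyte markers (16 genes) had summed intensities of 8150 to 10323 in the first set and 12550 to 17616 in the second. The defining Kupffer cell marker Clec4f read 144 to 228, under the lowest library median. No detection calls were used, so its presence was not tested.

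Glucagon raised all 3 members, and Nr4a1 had the largest shared difference of all genes tested. Its intensity was 278 and 269 in shNS PBS, 294 in shWDR5 PBS and 311 in shKAT2B PBS. Under glucagon it was 3304 and 3397 in shNS, 3468 and 3040 in shWDR5 and 1911 and 1872 in shKAT2B. The 6 glucagon libraries lay above the 4 PBS libraries with a wide gap, the lowest of them at 6.02 times the highest PBS library, and both shKAT2B glucagon libraries lay below the 4 other glucagon libraries. Over the 3 arms the log2 difference was 3.28 ± 0.15 (standard error of the limma fit, 6 against 4 libraries, adjusted p = 1.72e-05), or 9.71-fold, and it ranked 1 of 11480 genes tested.

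Nr4a2 started from unequal levels in PBS. It read 215 and 284 in shNS PBS, 471 in shWDR5 PBS and 449 in shKAT2B PBS. Under glucagon it read 1771 and 2272 in shNS, 1771 and 2487 in shWDR5 and 1607 and 1924 in shKAT2B. The PBS libraries of both knockdown arms lay above both shNS PBS libraries, while under glucagon the arms overlapped, and within each arm the glucagon library B was above A. The lowest glucagon library was at 3.41 times the highest PBS library. The shared log2 difference was 2.47 ± 0.20, or 5.54-fold (adjusted p = 0.000522, rank 5).

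Nr4a3 read 86.8 and 61.0 in shNS PBS, 64.9 in shWDR5 PBS and 75.1 in shKAT2B PBS. Under glucagon it read 584 and 572 in shNS, 508 in both shWDR5 libraries (deposited values are rounded to steps of 0.01 in log2) and 410 and 333 in shKAT2B. As for Nr4a1, both shKAT2B glucagon libraries were the lowest of the 6, and the PBS libraries of the arms overlapped. The lowest glucagon library was at 3.84 times the highest PBS library, and the shared log2 difference was 2.77 ± 0.14, or 6.82-fold (adjusted p = 2.8e-05, rank 4). Nr4a3 passed the filter on low values only through its glucagon libraries. Its PBS mean, 6.18 on the log2 scale, lies under the filter's threshold of 7.13, and without the filter the difference was the same 2.77 (adjusted p = 1.7e-05). The PBS means of Nr4a1 and Nr4a2, at 8.17 and 8.40, passed by themselves.

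**Figure D2:**
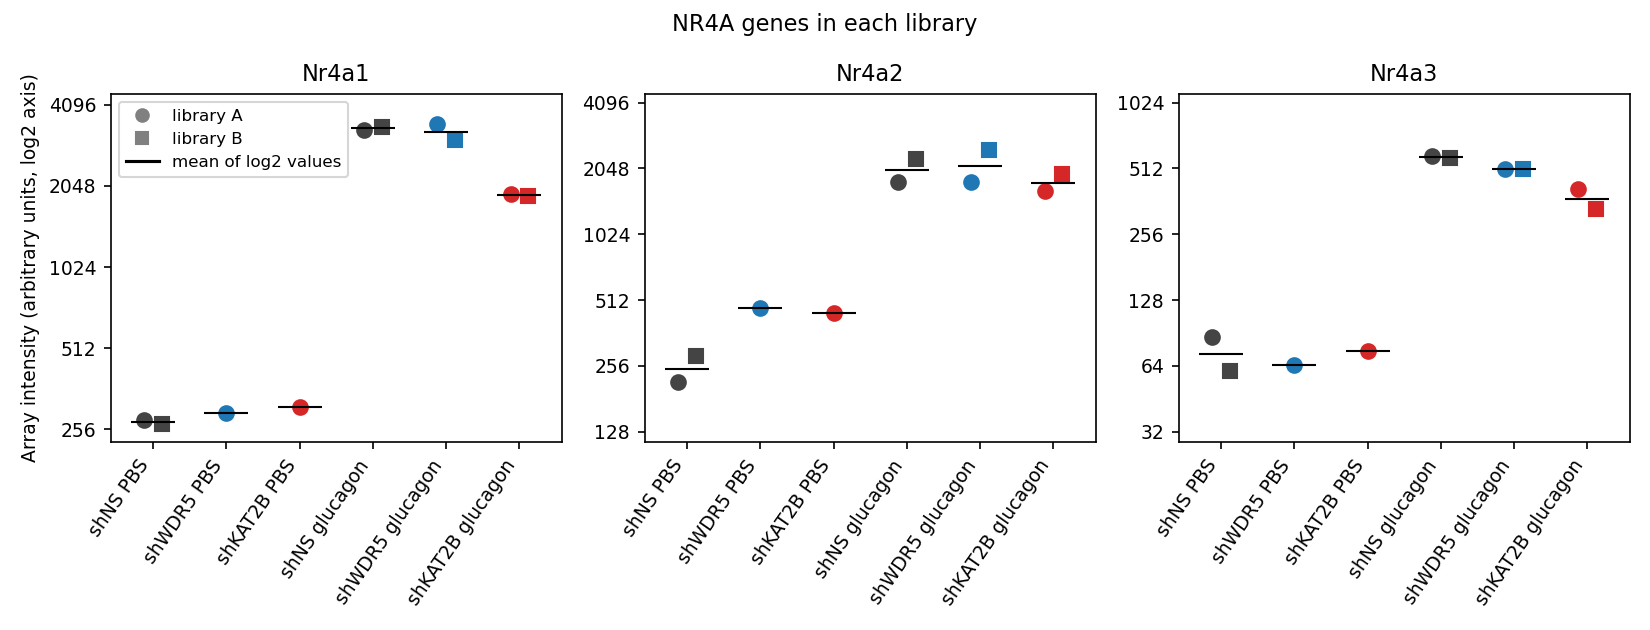
Array intensity (log2 axis, arbitrary units) of Nr4a1, Nr4a2 and Nr4a3 in each of the 10 libraries, by arm and treatment; circles are libraries A, squares are libraries B and lines are group means of log2 values. Every glucagon library lies above every PBS library for each gene, and the shKAT2B glucagon libraries of Nr4a1, at 1911 and 1872, lie below the other 4, at 3040 to 3468.

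All 3 members were thus called in the shared glucagon effect (limma, Benjamini-Hochberg over all genes tested, adjusted p below 0.05), against 0.679% of all genes tested called higher. Their calls held in each of 20 or 21 other settings, with shared differences of 3.20 to 3.55 for Nr4a1, 2.31 to 2.67 for Nr4a2 and 2.54 to 2.96 for Nr4a3. Within library sets, 4 single-library pairs of one arm could be formed. Glucagon exceeded PBS in 4 of 4 for each gene, which follows from the gap between treatments given above and adds no support. In shNS, the arm with a pair in both sets, the ratio in the first and the second set was 11.8 and 12.6 for Nr4a1, 8.19 and 7.98 for Nr4a2 and 6.66 and 9.25 for Nr4a3. No Kupffer cell or leukocyte marker was called for glucagon (0 of 14 tested), where 0.923% of all genes were called in either direction. A count of 0 is near that share and does not show an unchanged cell mix. The summed intensity of these markers ran from 8306 to 16381 in PBS and from 8150 to 17616 under glucagon. In bulk RNA a change in the share of a cell type and a change per cell cannot be told apart, and nothing in the labels says that libraries A and B come from separate animals, so p-values measure the spread between these pools.

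Taken arm by arm, Nr4a1 rose in all 3 arms. The differences were 3.61 ± 0.10 in shNS (12.2-fold, adjusted p = 3.67e-05), 3.46 ± 0.12 in shWDR5 (adjusted p = 0.000201) and 2.60 ± 0.12 in shKAT2B (6.07-fold, adjusted p = 0.00144). Nr4a3 rose by 2.97 ± 0.18 in shNS (7.85-fold, adjusted p = 0.00123), by 2.95 ± 0.22 in shWDR5 (7.73-fold, adjusted p = 0.0102) and by 2.28 ± 0.22 in shKAT2B (4.87-fold, adjusted p = 0.0373). Nr4a2 rose by 3.01 ± 0.22 in shNS (8.08-fold, adjusted p = 0.00383), while its 2.15 ± 0.27 in shWDR5 (4.45-fold, adjusted p = 0.0807) and 1.97 ± 0.27 in shKAT2B (3.91-fold, adjusted p = 0.162) did not pass. Over all genes 0.192%, 0.0871% and 0.061% were called higher in shNS, shWDR5 and shKAT2B, so within an arm few genes pass at this number of libraries. The unadjusted limma p lay under 0.05 for 250, 162 and 182 genes, fewer than uniform p-values would give.

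Several of these arm-wise calls changed with the setting. In a fit of the libraries of 1 arm only, the shKAT2B calls of Nr4a1 and Nr4a3 ended (2.60 and 2.28, adjusted p = 0.946 and 0.998, with 0 genes called) and so did the shWDR5 call of Nr4a3 (2.95, adjusted p = 0.0621, with 1 gene called). With the letter A or B as a paired block, Nr4a2 passed in shWDR5 at 1.96 (adjusted p = 1.1e-06) and in shKAT2B at 1.78 (adjusted p = 2.11e-06), and with the library set as a term at 2.34 and 2.16 (adjusted p = 2.37e-07 and 5.91e-07). The letter block called 1705 and 3014 of the 11480 genes in shWDR5 and shKAT2B, and the set term 87 and 73. The set was read from the residuals of these same libraries, so p-values with the set as a term can be too small, here and below. Calls under that term are given as a description only. The letter block puts both single PBS libraries with the A libraries, from which the residuals set them apart. The call of Nr4a3 in shWDR5 ended without shWDR5 glucagon A or B (adjusted p = 0.117 and 0.119). That in shKAT2B ended without shNS glucagon A or B (0.1 and 0.1), shWDR5 glucagon A or B (0.18 and 0.18) or shKAT2B glucagon A or B (0.224 and 0.107).

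**Figure D3:**
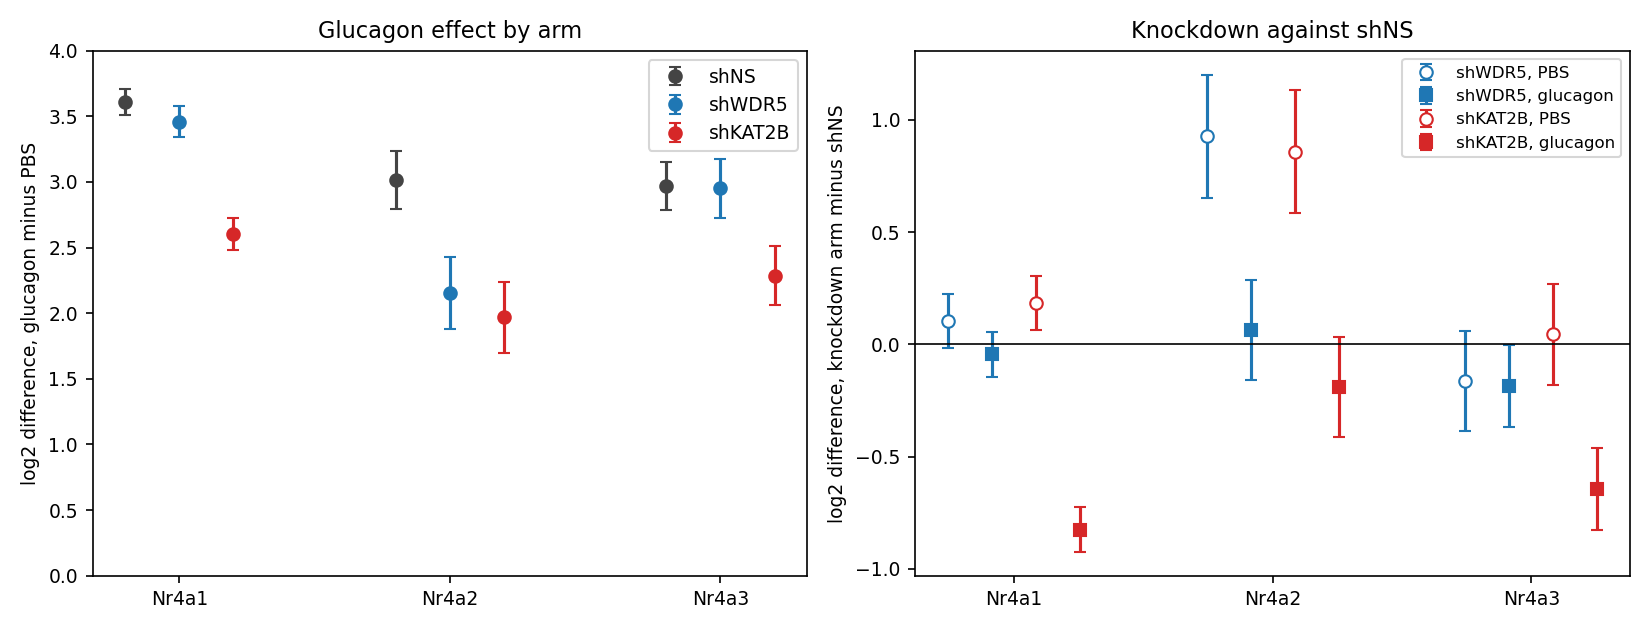
Left: log2 difference between glucagon and PBS for each NR4A gene in each arm. Right: log2 difference between each knockdown arm and shNS, in PBS (open circles) and under glucagon (filled squares); bars are standard errors of the limma fit. Under glucagon Nr4a1 is at -0.82 in shKAT2B, which passed, and at -0.04 in shWDR5; the values of Nr4a2 in PBS, 0.93 in shWDR5 and 0.86 in shKAT2B, did not pass.

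Under glucagon, Nr4a1 was lower in shKAT2B than in shNS by 0.82 ± 0.10 on the log2 scale, that is -0.82 or 1.77-fold lower (2 against 2 libraries, adjusted p = 0.0212, with 1.34% of all genes called and 0.897% called lower). The differences were -0.79 in the first library set and -0.86 in the second. The letter block gave the same -0.82 with adjusted p = 2.32e-05 and called 3127 of the 11480 genes. For this comparison it equals the library set term. Without it the call ended when any of 6 libraries was left out: shNS PBS A or B (adjusted p = 0.05 and 0.0515), shNS glucagon A or B (0.169 and 0.215) or shKAT2B glucagon A or B (0.0575 and 0.144). The difference itself stayed between -0.84 and -0.80. Hepatocyte markers (12 genes) summed to 45530 and 47002 in the shKAT2B glucagon libraries against 56245 and 59250 in shNS glucagon, and to 45728 and 51136 in shWDR5 glucagon, where Nr4a1 stood at -0.04 from shNS. These markers include Tat and Pck1, which were themselves called for glucagon (2.924 and 1.635), and in shNS PBS they summed to 50774 and 55012. Over both treatments 5 of the 11 tested fell in shKAT2B, among them Hnf4a at -0.33 ± 0.06 (adjusted p = 0.00841), and 2 fell in shWDR5, against 8.95% and 6.17% of all genes. These counts were 11 and 7 with the library set as a term, under which 4766 and 4229 of the 11480 genes were called in either direction. The part of these markers in the Nr4a1 difference was not tested.

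Nr4a3 stood at -0.64 ± 0.18 in shKAT2B against shNS under glucagon, 1.56 times lower, which did not pass (adjusted p = 0.148), and at -0.51 and -0.78 within the sets. With the letter block it passed (-0.64, adjusted p = 0.00268), where 3127 of the 11480 genes were called. Nr4a2 stood at -0.19 ± 0.22 (95% confidence interval -0.72 to 0.34, adjusted p = 0.797), and at -0.14 and -0.24 within the sets.

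The shWDR5 arm gave no call for any member under glucagon, where 0.0523% of genes were called in either direction. The differences from shNS were -0.04 for Nr4a1 (95% confidence interval -0.28 to 0.19), 0.06 for Nr4a2 (-0.46 to 0.59) and -0.18 for Nr4a3 (-0.62 to 0.25), with adjusted p of 0.925, 0.958 and 0.768. Set directly against shWDR5 under glucagon, shKAT2B was lower in Nr4a1, at -0.78 ± 0.10 or 1.72-fold (adjusted p = 0.013, with 6.32% of genes called and 3.43% called lower). That call ended without shWDR5 glucagon A or B (adjusted p = 0.0743 and 0.0623) or shKAT2B glucagon A or B (0.0515 and 0.0826), and in a fit of these 2 arms alone (0.08). Nr4a2 and Nr4a3, at -0.25 ± 0.22 and -0.46 ± 0.18, did not pass (adjusted p = 0.567 and 0.193). With the letter block both passed at these values (adjusted p = 0.0196 and 0.0115), where 4511 of the 11480 genes were called.

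In PBS the order was different. Nr4a2 stood at 0.93 ± 0.27 in shWDR5 and at 0.86 ± 0.27 in shKAT2B against shNS, 1.90 and 1.81 times higher, with 1 library against 2. Neither passed (adjusted p = 0.469 and 0.248), where 0.00871% and 0.505% of genes were called. Within the second library set, the only one with a PBS library of each arm, the differences were 0.73 and 0.66. With the set as a term they passed at 0.74 and 0.67 (adjusted p = 0.00136 and 0.000824), and with the letter block at 1.12 and 1.05 (adjusted p = 2.16e-05 and 2.13e-05). The set term called 1012 and 2112 of the 11480 genes in these comparisons, and the letter block 3516 and 4257. That block puts both single PBS libraries with the A libraries, from which the residuals set them apart. The set itself was read from these residuals, so p-values with the set as a term can be too small. The Kupffer cell and leukocyte markers summed to 14673 in shWDR5 PBS and 16381 in shKAT2B PBS against 8306 and 12550 in shNS PBS, and endothelial markers to 6321 and 6833 against 4260 and 5350. Both knockdown PBS libraries are in the second set, where the shNS PBS library is that at 12550 and at 5350. Stellate cell and fibroblast markers summed to 6361 and 6590, against 5865 in that shNS library and 8630 in that of the first set. The part of these markers in the Nr4a2 levels was not tested. Nr4a1 differed from shNS in PBS by 0.10 (95% confidence interval -0.18 to 0.39) in shWDR5 and 0.18 (-0.10 to 0.47) in shKAT2B, and Nr4a3 by -0.16 (-0.69 to 0.37) and 0.04 (-0.49 to 0.57). The PBS libraries of the 2 knockdown arms differed from each other by 0.08, -0.07 and 0.21 in Nr4a1, Nr4a2 and Nr4a3 (adjusted p = 0.927, 0.98 and 0.872, with 0.287% of genes called).

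Put in order of mean level, Nr4a1 ran from shNS glucagon and shWDR5 glucagon, which did not differ beyond their spread, through shKAT2B glucagon to the 3 PBS groups. In PBS no difference between arms passed for Nr4a1. The single libraries of shKAT2B (311) and shWDR5 (294), which have no spread of their own, lay above both shNS libraries (278 and 269). Nr4a3 had the same order of glucagon groups, and in it no pair of neighbours within a treatment passed. For Nr4a2 shWDR5 glucagon came first, then shNS glucagon and shKAT2B glucagon, then both knockdown PBS groups, and shNS PBS was last.

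Whether the glucagon effect itself differed between arms was tested as an interaction. The effect in shKAT2B minus that in shNS was -1.01 ± 0.16 for Nr4a1, -1.05 ± 0.35 for Nr4a2 and -0.69 ± 0.29 for Nr4a3, which rank 3, 2 and 38 from the lowest of 11480 genes. None passed after adjustment (adjusted p = 0.999 for each, unadjusted p = 0.000354, 0.0211 and 0.0494). No gene was called for this interaction (0%), with 36 genes at an unadjusted p under 0.05 (limma). Uniform p-values would put a share of 0.05 of the 11480 genes there, far more than 36. These p-values therefore ran high, and a missing call does not show equal effects. With the letter block Nr4a1 and Nr4a2 passed at -0.98 and -1.24 (adjusted p = 0.00211 and 0.00127), and Nr4a3 did not (-0.58, adjusted p = 0.0786). The letter block called 1384 of the 11480 genes for this interaction, and the set term 2. With the library set as a term Nr4a1 passed at -1.04 (adjusted p = 0.015), and Nr4a2 at -0.86 and Nr4a3 at -0.79 did not (adjusted p = 0.0742 and 1). The parts of these values differ by gene: for Nr4a1 they were -0.82 under glucagon and 0.18 in PBS, and for Nr4a2 -0.19 under glucagon and 0.86 in PBS, where a knockdown arm has 1 library.

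In shWDR5 the effect differed from that in shNS by -0.15 ± 0.16 for Nr4a1 (95% confidence interval -0.52 to 0.22) and -0.02 ± 0.29 for Nr4a3 (-0.71 to 0.66). For Nr4a2 it was -0.86 ± 0.35 (-1.70 to -0.03, unadjusted p = 0.045, rank 9 from the lowest). None passed (adjusted p = 1 for each), and no gene was called (0%, with 20 genes at an unadjusted p under 0.05). That is again far fewer than uniform p-values would give, so equal effects are not shown. With the letter block Nr4a2 passed at -1.05 (adjusted p = 0.00279), and with the set as a term it did not (-0.67, adjusted p = 0.646). The letter block called 545 of the 11480 genes here, and the set term 0.

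**Figure D4:**
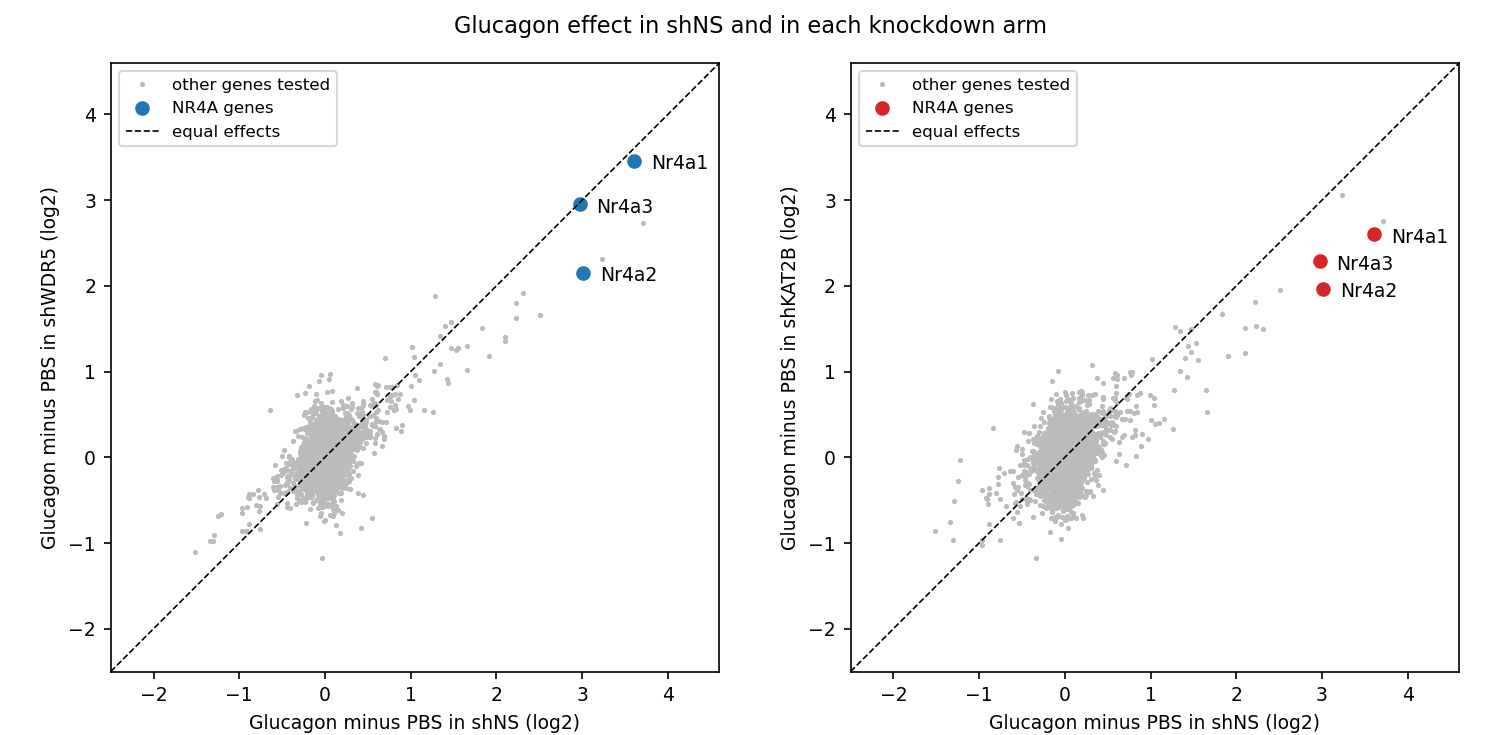
Glucagon effect (log2, glucagon minus PBS) in shNS on the x axis against that in shWDR5 (left) and shKAT2B (right) on the y axis, for the 11480 genes tested; the dashed line marks equal effects. The NR4A genes lie at the far upper right; all 3 lie below the line in both panels, Nr4a1 and Nr4a3 close to it in shWDR5 (differences of -0.15 and -0.02), and none of these differences passed.

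Averaged over both treatments, no member was called in either knockdown arm, where 10.9% of genes were called for shWDR5 (4.69% higher and 6.17% lower) and 15.6% for shKAT2B (6.66% higher and 8.95% lower). In shKAT2B Nr4a1 stood at -0.43 ± 0.18, Nr4a2 at 0.25 ± 0.24 and Nr4a3 at -0.38 ± 0.17 (adjusted p = 0.149, 0.551 and 0.177). These values average a difference under glucagon with one near 0 or of opposite sign in PBS. Without the lone library shKAT2B PBS A, which leaves only glucagon libraries in that arm, Nr4a1 was called at -0.79 (adjusted p = 0.00414). It was also called with the set as a term (-0.44, adjusted p = 0.0373), and Nr4a3 with the letter block (-0.43, adjusted p = 0.0427). These settings called 4766 and 3396 of the 11480 genes in shKAT2B. In shWDR5 the values were 0.06 ± 0.18, 0.44 ± 0.24 and -0.14 ± 0.17 (adjusted p = 0.881, 0.289 and 0.659).

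The patterns over the 10 libraries, which treatment dominates, were most alike for Nr4a1 and Nr4a3 (Pearson r = 0.993), each near the top of the other's list (places 2 and 1 of 11479 genes). Nr4a2 stood further off, at r = 0.962 with Nr4a1 and 0.944 with Nr4a3. The genes most like Nr4a1 were Rasgef1b, a guanine nucleotide exchange factor (r = 0.994), Nr4a3, the kinase gene Sik1 (0.993), Cep85l (0.991) and Hilpda, a lipid droplet protein (0.986). Those most like Nr4a3 were Nr4a1, Sik1 (0.992), Rasgef1b (0.985), Cep85l (0.985) and the insulin receptor substrate gene Irs2 (0.98). None of these was among the genes most like Nr4a2, which were the prolyl hydroxylase gene Egln3 (0.99), Rgs2, a brake on G protein signalling (0.981), the amino acid transporter gene Slc7a2 (0.977), the aminotransferase gene Got1 (0.977) and Tnfaip6 (0.974). These correlations describe the same 10 libraries and carry no test. The genes furthest in the opposite direction were the immediate early gene Egr1 for Nr4a1 and Nr4a3 (r = -0.95 and -0.962) and the tissue factor gene F3 for Nr4a2 (-0.959).

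In a list of other CREB and cyclic AMP immediate targets, the shared differences were all below those of the 3 members, which was not tested as a difference. That order holds for this list only. G6pc at 3.16 and Tat at 2.92, which are in other lists, lay above Nr4a3 and Nr4a2. Of 23 tested, 8 rose and 2 fell in the shared glucagon effect, with a median of 0.35 against 0.01 over all genes tested (0.923% of all genes called, 0.679% higher and 0.244% lower). The largest were Sik1 at 1.99 ± 0.08, Rgs2 at 1.86 ± 0.18, the coactivator gene Ppargc1a at 1.70 ± 0.07, the phosphodiesterase gene Pde4b at 1.40 ± 0.07, Irs2 at 1.37 ± 0.13 and Pde4d at 0.79 ± 0.10 (adjusted p = 1.11e-05, 0.0011, 1.11e-05, 2.31e-05, 0.000997 and 0.00515). These 6 calls held with any single library left out. The other 2 that rose were lost with fewer libraries: Crem, at 0.65 ± 0.10, without the lone PBS library of either knockdown arm or without shNS glucagon B (adjusted p up to 0.125), and Pde10a, at 0.35 ± 0.06, without any of 9, all but shWDR5 glucagon B (up to 0.2). Egr1 fell by 0.84 ± 0.07 and Ier2 by 0.42 ± 0.06, of which the call of Ier2 was lost on leaving out shNS PBS B or 5 other libraries, 1 at a time (adjusted p up to 0.146). The count of list genes that rose was 14 with the letter block, 14 with the library set as a term (with 4 that fell), 13 in the second library set alone and 5 with the lowest 50% of genes left out. Among all genes tested, 287 were called for glucagon with the letter block, 385 with the set term and 309 in the second set alone. For the knockdowns 3 of the 23 rose and 1 fell in shWDR5, and 2 rose and 4 fell in shKAT2B. Over all genes 4.69% rose and 6.17% fell in shWDR5, and 6.66% rose and 8.95% fell in shKAT2B. With the library set as a term, under which 4229 and 4766 of the 11480 genes were called in shWDR5 and shKAT2B, the list counts were 5 that rose and 4 that fell in shWDR5, and 2 and 10 in shKAT2B. The prostaglandin synthase gene Ptgs2 rose by 0.98 ± 0.14 in shWDR5 (adjusted p = 0.00474) and fell by 0.67 ± 0.14 in shKAT2B (adjusted p = 0.0125, and 0.0572 without shKAT2B PBS A). The antiproliferative gene Btg2 rose by 0.61 ± 0.07 in shKAT2B (adjusted p = 0.000704).

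**Figure D5:**
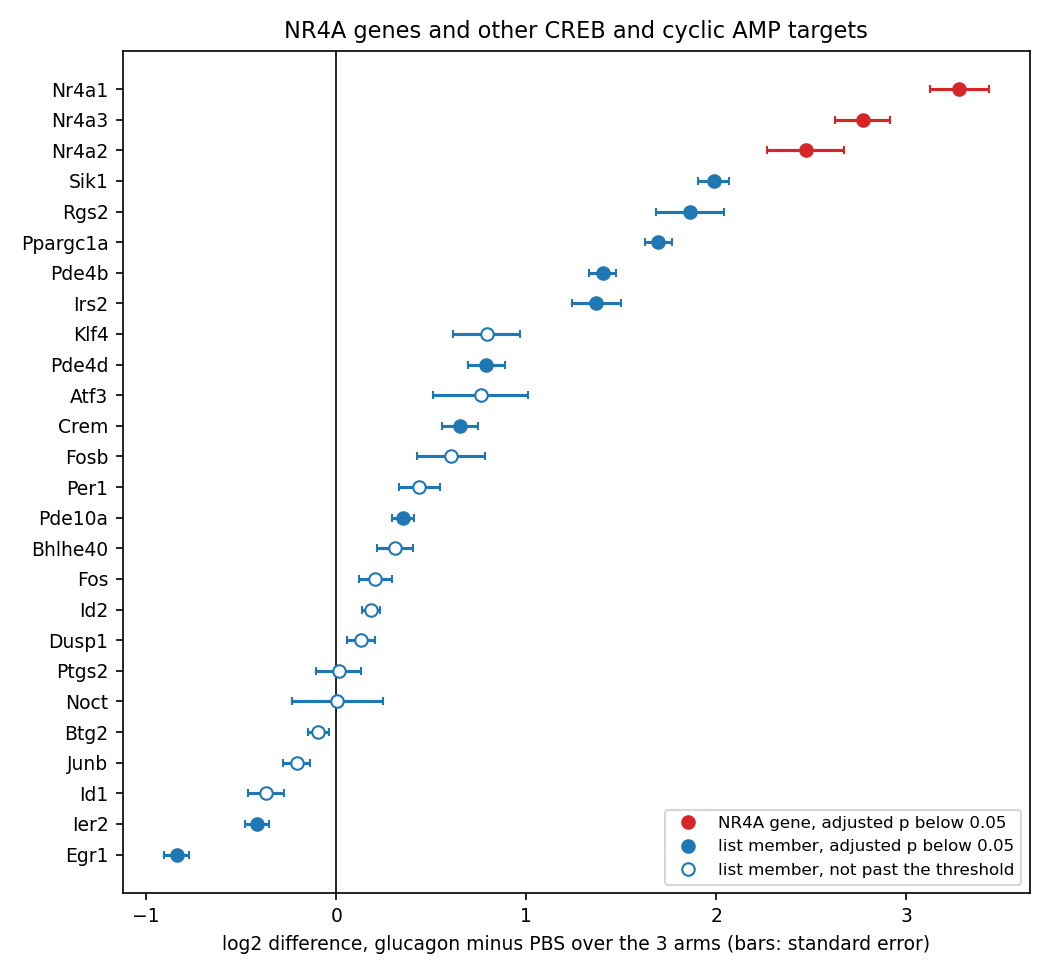
Shared glucagon effect (log2, glucagon minus PBS over the 3 arms; bars are standard errors) for the NR4A genes and the 23 tested members of the list of other CREB and cyclic AMP targets; filled points passed an adjusted p below 0.05. The NR4A genes are at the top, at 3.28, 2.77 and 2.47, above Sik1 at 1.99, and Egr1 is lowest at -0.84. G6pc at 3.16 and Tat at 2.92 are in other lists and are not shown.

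Among factors that act on NR4A promoters, none of 13 tested was called for glucagon (median 0.02). Over all genes 0.923% were called, so a count of 0 is near that share. The serum response factor gene Srf came nearest, at -0.26 ± 0.05 (adjusted p = 0.0839). With the library set as a term Srf was called at -0.25 (adjusted p = 0.00774) and the histone deacetylase gene Hdac5 at 0.19 (adjusted p = 0.0285). Under that term 385 of the 11480 genes were called for glucagon. For the knockdowns 3 of the 13 fell in shWDR5 and 3 fell and 1 rose in shKAT2B, against 6.17% of all genes that fell in shWDR5 and 8.95% that fell and 6.66% that rose in shKAT2B. With the library set as a term 4 fell and 1 rose in shWDR5, and 7 fell and 1 rose in shKAT2B. That setting called 4229 and 4766 of the 11480 genes in these arms. Srf fell by 0.60 ± 0.06 in shKAT2B (adjusted p = 0.000704) and by 0.39 ± 0.06 in shWDR5 (adjusted p = 0.00817, and 0.0589 without shWDR5 PBS A). Prkacb, a catalytic subunit of protein kinase A, fell by 0.65 ± 0.13 in shKAT2B (adjusted p = 0.0089, and 0.0868 without shKAT2B PBS A). In shWDR5 it fell by 0.52 ± 0.13 (adjusted p = 0.0317), a call lost without any of 7 libraries, shWDR5 PBS A among them (up to 0.147). The myocyte enhancer factor gene Mef2a fell in shWDR5 by 0.63 ± 0.08 (adjusted p = 0.00289). The CREB relative Atf1 fell by 0.43 ± 0.11 in shKAT2B (adjusted p = 0.0314), and was not called without any of 5 libraries, shKAT2B PBS A among them (up to 0.163). The member of the list that rose there, Crtc1, stood at 0.29 ± 0.08 (adjusted p = 0.0387, and up to 0.142 with 1 library left out). Creb1 and the coactivator genes Crtc2 and Crtc3 were not called in either arm or for glucagon.

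Of 11 tested partners of the NR4A proteins, none was called for glucagon (median 0.04), which is near the 0.923% of all genes called. For the knockdowns 2 rose and 1 fell in shWDR5 and 1 rose in shKAT2B, where 10.9% and 15.6% of all genes were called. The set term gave 4 that rose and 1 that fell in shWDR5, and 1 and 1 in shKAT2B. It called 4229 and 4766 of all 11480 genes in these arms. The retinoid X receptor gene Rxrg fell in shWDR5 by 0.58 ± 0.11 (adjusted p = 0.0129, and 0.0964 without shWDR5 PBS A), and the other receptors that pair with NR4A proteins, Rxra and Rxrb, were not called. The demethylase gene Kdm1a rose in shKAT2B by 0.27 ± 0.05 (adjusted p = 0.00869, and 0.0817 without shKAT2B PBS A). In shWDR5 Kdm1a and Sfpq rose by 0.20 ± 0.05 and 0.21 ± 0.06 (adjusted p = 0.0412 and 0.0496), calls lost without any of 8 and of 9 libraries. Of 6 tested carbohydrate genes described as NR4A targets, 1 rose with glucagon, G6pc, which encodes the enzyme that releases free glucose, at 3.16 ± 0.33 (adjusted p = 0.00203), against 0.679% of all genes called higher. That difference is larger than those of Nr4a3 and Nr4a2. The median of these 6 was 0.22. Fbp1, the gluconeogenic fructose bisphosphatase, stood at 0.45 ± 0.19 (adjusted p = 0.962) and passed at 0.59 with the library set as a term (adjusted p = 0.00322), as did the phosphatidate phosphatase gene Lpin1 at 0.28 (adjusted p = 0.0487, and 0.312 without the term), which makes 3 of 6. That term called 385 of the 11480 genes for glucagon. The muscle enolase gene Eno3 stood at 0.00 ± 0.08 (adjusted p = 0.998). None of the 6 was called in either knockdown arm, where 10.9% and 15.6% of all genes were called. Under the set term 3 fell in shWDR5, and 2 rose and 1 fell in shKAT2B, where 4229 and 4766 of the 11480 genes were called.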

How the data were processed

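Mouse hepatocyte RNA was measured in 10 libraries. In the table the authors deposited, each probe set has a linear intensity, and 100% of values have a log2 within 0.0005 of a multiple of 0.01, so equal values in 2 libraries can come from rounding. The tool was Affymetrix Expression Console 1.1.1, per the submitters' processing notes; its normalization is not given in the labels or notes. Of 26913 probe sets 17873 carry 1 symbol (17815 matched to RefSeq by gene ID), and each gene kept its probe set with the highest mean. Tests used log2(intensity + 1) after dropping the lowest 30% of genes by mean (11480 tested, 3 of 3 members among them). Models came from limma 3.58.1 (R 4.3.3; lmFit, then eBayes with trend) and were checked on simulated data. The additive model of arm and treatment gave shared effects with 6 residual degrees of freedom, the model of the 6 groups the others with 4; a group of 1 library is assumed to vary like the others. Tests were two-sided, adjusted by Benjamini-Hochberg over all genes tested and called below 0.05. Same-letter libraries deviated together (correlations of 0.72 to 0.84 over 6 pairs of groups, across genes), so values with the letter as a block are given where they change a call.

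Named are the members, the hairpin targets, the 5 genes most correlated with each member, and list genes called, up to 6 for glucagon and up to 4 for the knockdowns. Hnf4a, Alb, Ttr, Apoa1, Cps1, Clec4f, F3, Fbp1, Lpin1, Eno3, Hdac5, Rxra, Rxrb, Creb1, Crtc2 and Crtc3 were added after their values were seen. The members and lists were chosen with earlier results of these data known. Other settings were pseudocounts of 0 and 16, quantile normalization, median-centred libraries, no filter, a 50% filter, the mean of a gene's probe sets, no trend, the letter block, the library set as a term or its second set alone, only the arms compared, and each library left out in turn. Promoter windows are RefSeq's, matched by symbol for 3 of 3 members, and end at the start. Python 3.11.15 with pandas 2.3.3, numpy 2.4.6 and matplotlib 3.10.9 was used for the rest.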

Additional observations from a re-analysis of the deposited data

How the results depend on the processing

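Of the members' differences under other settings, 794 kept direction and side of the threshold, 21 passed anew, 22 lost the call and 13 changed sign; the shared glucagon effect of Nr4a1, Nr4a2 and Nr4a3 kept its call in each setting, with Nr4a3 not tested under the 50% filter. The causes were not tested, apart from the fewer libraries of fits that leave some out. Depth does not apply to arrays, and no detection calls were used.

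With the replicate block (letter A or B), calls appeared for the shKAT2B arm over both treatments in Nr4a3 (-0.43), the glucagon effect on Nr4a2 in shWDR5 (1.96) and shKAT2B (1.78), shKAT2B against shNS under glucagon in Nr4a3 (-0.64), shWDR5 and shKAT2B against shNS in PBS in Nr4a2 (1.12 and 1.05), and shKAT2B against shWDR5 under glucagon in Nr4a2 (-0.25) and Nr4a3 (-0.46). They also appeared for the interactions of Nr4a2 in shWDR5 (-1.05) and of Nr4a1 and Nr4a2 in shKAT2B (-0.98 and -1.24). Uncalled values of Nr4a3 turned, to -0.06 for shKAT2B in PBS and to 0.08 for the shWDR5 interaction. The block changed no other call. The library set was read from the residuals of these same libraries, so p-values with it as a term can be too small. With the library set as a term, calls appeared for shKAT2B over both treatments in Nr4a1 (-0.44), glucagon on Nr4a2 in shWDR5 (2.34) and shKAT2B (2.16), Nr4a3 in shKAT2B under glucagon (-0.64), Nr4a2 in PBS in shWDR5 and shKAT2B (0.74 and 0.67), shKAT2B against shWDR5 under glucagon in Nr4a2 (-0.25) and Nr4a3 (-0.46), and the interaction of Nr4a1 in shKAT2B (-1.04).

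With only the arms compared, calls ended for glucagon on Nr4a3 in shWDR5 (2.95), on Nr4a1 and Nr4a3 in shKAT2B (2.60 and 2.28), and for Nr4a1 in shKAT2B against shWDR5 under glucagon (-0.78). Uncalled values turned in the second library set alone (Nr4a1 in shWDR5 over both treatments, -0.02) and after quantile normalization (Nr4a3 in shKAT2B in PBS, 0.00). Leaving out 1 library gave ranges for Nr4a1 of -0.02 to 0.16 in shWDR5 and -0.79 to -0.31 in shKAT2B over both treatments, -0.14 to 0.05 in shWDR5 and -0.84 to -0.80 in shKAT2B under glucagon, and -0.87 to -0.68 for shKAT2B against shWDR5 under glucagon. For Nr4a2 they were -0.02 to 0.45 in shKAT2B over both treatments and -0.18 to 0.31 in shWDR5 under glucagon. For Nr4a3 they were 2.95 to 2.95 and 2.14 to 2.43 for glucagon in shWDR5 and shKAT2B, -0.41 to 0.09 and -0.21 to 0.30 for shWDR5 and shKAT2B in PBS, and -0.27 to 0.23 for the shWDR5 interaction. Counts over all genes moved more: 106 genes were called for the shared glucagon effect, 385 with the library set as a term, 287 with the replicate block, 309 in the second set alone and 50 without shWDR5 PBS A. The interactions of shKAT2B and shWDR5 had 0 genes called, against 1384 and 545 with the replicate block and 2 and 0 with the library set as a term.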
